A study of Arabidopsis thaliana with 6 samples.

Results

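Hydrated pollen of Arabidopsis thaliana was compared with dry mature pollen on Affymetrix ATH1 arrays, on which sets of short probes capture biotin-labelled cRNA. The comparison used the 2 arrays of hydrated pollen and the 2 arrays of desiccated mature pollen, 4 of the 6 arrays of the series, and 22746 probe sets that were not controls. It was made within replicate number, array 1 with array 1 and array 2 with array 2. The remaining 2 arrays, from pollen tubes grown for 4 h, entered only to estimate the spread and the replicate term, and their signals are given beside some genes.

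All plants were of the ecotype Columbia and 50 days old, and no mutant or transgenic line was used. Hydrated pollen was released by vortexing whole open flowers for 2 min in a medium with 15% sucrose, calcium and boric acid, spun for 1 min, and held for 45 min at 25 °C as a thin film in a dish. Mature pollen was taken dry from freshly opened flowers with a vacuum device. Hydration, shaking, spinning, the medium and the incubation at 25 °C therefore differed together between the groups and cannot be told apart. The replicates are called biological in the series' design, with no word on plants, days or batches. The labels of the hydrated arrays give germination of 70 to 75%, and those of the tube arrays give the same figure. The share of hydrated grains that had already germinated at 45 min is therefore not clear from it.

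Pollen leaves the anther nearly dry and almost without metabolism. Water uptake on the stigma or in medium restarts respiration, calcium signalling and actin-dependent traffic, and the grain then puts out a tube that grows at its tip. Mature grains are known to carry large stores of mRNA and protein made before drying, so that early germination depends little on new transcription. Heat shock proteins are chaperones that bind unfolded proteins, and calmodulin-like proteins are calcium sensors with EF-hand motifs.

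The 4 arrays covered similar ranges of signal. Median signals were 19.5 and 16.9 in hydrated pollen and 24.4 and 17.9 in mature pollen, in arbitrary units. The 60th percentile of each array, taken here as the limit of background, was 27.5 and 23.5 in hydrated pollen and 34.1 and 25.1 in mature pollen. Across probe sets averaging over 200, the Pearson coefficient was 0.937 between the hydrated arrays and 0.918 between the mature arrays. It was 0.924 and 0.916 from hydrated to mature pollen within replicate numbers 1 and 2, and 0.865 and 0.867 across the numbers. An array was thus about as close to the other stage of its own number as to the other array of its own stage.

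Markers of other tissues were at or near background. Of the fixed marker lists, 3 photosynthesis genes, 2 floral organ genes and 4 tapetum and pollen coat genes had a probe set with a name. Their summed signals were 38.6 and 10.9 in hydrated pollen and 31.5 and 23.9 in mature pollen for photosynthesis, 39.6 and 27.4 against 61.6 and 48.5 for floral organs, and 49.3 and 45.1 against 37.2 and 17.8 for the tapetum. The highest value of any marker on the 4 arrays was 48.8, for SWEET9, a nectary sugar carrier, on mature array 1. The sperm cell histone gene MGH3, a marker of pollen, read 2343.1 and 1316.2 in hydrated pollen and 2442.5 and 1430.7 in mature pollen. No epidermis marker was named among the probe sets.

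A total of 421 of the 11412 tested probe sets (3.69%) passed limma's test with the replicate number as a block at a Benjamini-Hochberg adjusted p under 0.05. Of these, 293 (2.57%) were higher and 128 (1.12%) lower in hydrated pollen. The risen transcripts had lower signals in the dry grain than the fallen ones, and both had higher ones than the tested probe sets as a whole. The calls were chosen on these same signals, so the gap between rises and falls in the dry grain follows in part from that choice. The median signal of the risen probe sets was 361 in hydrated and 98.4 in mature pollen, and that of the fallen ones 791 in hydrated and 1470 in mature pollen. Over all tested probe sets the medians were 42.9 and 46.4. Mature signal averaged over 1000 for 78 of the 128 falls but for 27 of the 293 rises, and for 969 of all tested probe sets. Among the calls the fitted rises were also larger. Their median log2 change was 1.71 and that of the falls -0.99, beside -0.02 over all tested probe sets. Fitted changes of at least 8-fold numbered 71 upward and 3 downward. In 65 of the rises neither mature array was above background, and in 3 of the falls neither hydrated array was. The fitted sizes of these rest in part on values that were not measured well. The fitted spread was also larger at low signal, where a larger change was needed to pass. The gap in size between rises and falls may follow in part from this, which was not tested.

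The test's settings moved these counts. Without the block 66 probe sets passed (0.578%), 60 upward and 6 downward, and all 66 were among the 421. Leaving out hydrated array 1 gave 193 calls, hydrated array 2 gave 187, mature array 1 gave 631 and mature array 2 gave 773, and without limma's intensity trend none passed although 997 had an unadjusted p under 0.05. Both hydrated arrays lay above both mature arrays in 273 of the 293 rises, where 15.7% of all tested probe sets did, and below both in 114 of the 128 falls, where 18.0% did. The calls were chosen by a test on these same arrays, so this separation follows in part from that choice and adds no support.

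The replicate numbers shared no array, so the difference within number 1 and the difference within number 2 were set side by side. Over all 11412 probe sets they were weakly related, with a Pearson coefficient of 0.153 and equal sign in 57.4%. Over the 2532 whose mean signal exceeded 200 the coefficient was 0.767 and the sign was equal in 68.4%. In 5 equal classes from the dimmest to the brightest signal, the coefficient was 0.032, 0.078, 0.168, 0.521 and 0.774. These coefficients run across probe sets, which are not independent, and are given as descriptions. The same classes held 8, 11, 34, 106 and 262 of the calls.

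**Figure D1:**
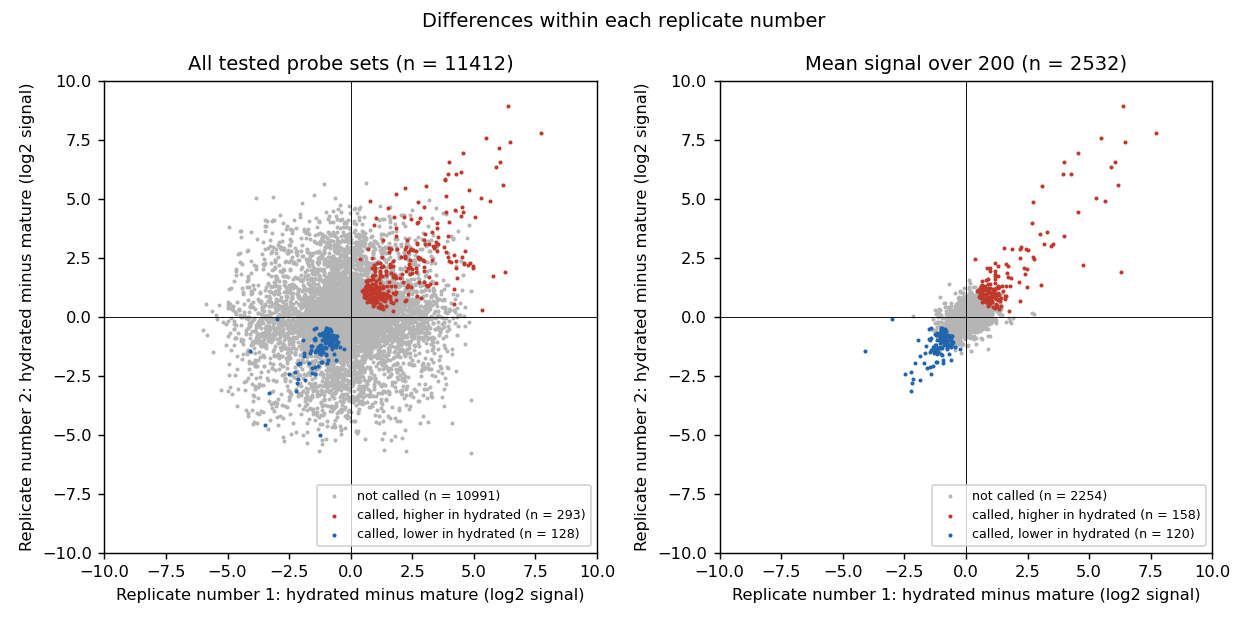
Each point is a probe set, with its hydrated minus mature log2 difference within replicate number 1 on the horizontal axis and within number 2 on the vertical axis. The left panel holds all 11412 tested probe sets (Pearson coefficient 0.153) and the right panel the 2532 with a mean signal over 200 (0.767), and the called probe sets, red for higher and blue for lower in hydrated pollen, lie in the quadrants of equal sign.

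Small heat shock proteins, ATP-independent chaperones that hold unfolding proteins, rose in hydrated pollen. Of 7 tested members 5 rose and none fell, where 2.57% of all tested probe sets rose and 1.12% fell. AT1G54050, ATHSP22.0, AT5G51440 and AT1G52560 had no mature array above background. They were tested only through their hydrated and tube arrays, which favours rises over falls in the count. The list's median log2 change was 3.17, beside -0.02 over all tested probe sets. It was 2.19 with the lower limit of the change used for members with neither array of 1 stage above background. AT2G29500, a class I member of the cytosol, had 2197 and 603.7 in hydrated pollen, against 49.1 and 3.1 in mature pollen (log2 change 6.54 ± 0.41 (SE), limma adjusted p = 5.71e-09). AT1G53540, also of class I, had 2325.7 and 1016.7 in hydrated pollen, against 59.1 and 30.8 in mature pollen (5.17 ± 0.20, adjusted p = 6.72e-12). Array 1 gave the higher signal in both stages for these genes, and the change of AT1G53540 was 5.30 and 5.04 within the numbers. AT2G29500 was under background on mature array 2, so its fitted size rests in part on a value that was not measured well. AT1G54050, of class III, read 1697.7 and 714.8 in hydrated pollen, against 28.4 and 8.7 in mature pollen, where it was not above background, so that it was at least 37.7-fold higher.

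The endoplasmic reticulum member ATHSP22.0 was dimmer. It had 156.2 and 114.2 in hydrated pollen, against 31.6 and 11.8 in mature pollen, at least 4.57-fold higher (limma adjusted p = 0.00036). The mitochondrial member AT5G51440 had 50.2 and 75.9 in hydrated pollen, against 14.7 and 4 in mature pollen, at least 2.11-fold higher (adjusted p = 0.0295). That last call was lost without hydrated array 1, hydrated array 2 or mature array 2, on the 4 arrays alone and with signals floored at the 60th percentile. The groups did not overlap in any of the 5 genes, nor in 273 of the 293 called rises. Of all tested probe sets 15.7% had both hydrated arrays above both mature arrays. The genes were called on these same arrays, so this adds no support. AT1G52560 (47.6 and 35.5 in hydrated, 2 and 10.4 in mature pollen) and AT2G19310 (6.5 and 12.2 in hydrated, 39 and 54.8 in mature pollen) did not pass, with adjusted p = 0.0849 and 0.283. Without the block 3 of the 5 passed. The summed signal of the 9 named members was 6514 and 2578.5 in hydrated pollen, against 255.1 and 145.2 in mature pollen.

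Larger chaperones and their partners moved in the same direction in 3 of 5 tested genes, where 2.57% of all tested probe sets rose, and none fell. Hsp70-2 and Hop3 had no mature array above background. They were tested only through their hydrated and tube arrays, which favours rises over falls in the count. The list's median log2 change was 4.32. It was 2.10 with the lower limit of the change used for members with neither array of 1 stage above background. AT5G48570, the peptidyl-prolyl isomerase ROF2 that binds HSP90, had 899.3 and 816.5 in hydrated pollen, against 107.2 and 17.2 in mature pollen (4.32 ± 0.39, limma adjusted p = 6.6e-07). It was under background on mature array 2, and its change was 3.07 and 5.57 within the numbers. Its fitted size thus rests in part on a value that was not measured well. Hsp70-2, a cytosolic HSP70, had 344.1 and 419.8 in hydrated pollen, against 12.3 and 10 in mature pollen, at least 13.0-fold higher. Hop3, which links HSP70 to HSP90, had 112.4 and 140.8 in hydrated pollen, against 5.1 and 2 in mature pollen, at least 4.30-fold higher. These 3 passed without the block and with each array left out. Relatives within the same families did not pass. AT3G09440, another cytosolic HSP70, read 27.5 and 71.6 in hydrated and 27 and 37.8 in mature pollen (adjusted p = 0.746), and Hop2 read 23.9 and 5.7 in hydrated and 22 and 38.1 in mature pollen (adjusted p = 0.635). No heat shock factor gene carried a name on the array here.

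The tube arrays gave different levels for these chaperone genes. AT2G29500 had 4902.5 and 2138.7, AT1G53540 had 4834.7 and 3083.3, and AT5G48570 had 3639.5 and 2742.9 on tube arrays 1 and 2. ATHSP22.0 had 251.4 and 286.2, Hop3 had 149.8 and 221.1, and AT5G51440 had 70.9 and 62.3. No test of tubes was made here.

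Calcium sensors changed in both directions. Of 16 tested members 3 rose and 1 fell, where 2.57% of all tested probe sets rose and 1.12% fell. The median log2 change was 0.27. AT1G76640, the calmodulin-like protein CML39, had 6555.1 and 4098 in hydrated pollen, against 278.3 and 190.2 in mature pollen. This was 22.5-fold (log2 change 4.49 ± 0.17, limma adjusted p = 6.22e-12), and 4.56 and 4.43 within the numbers. It was already above background in dry pollen, and no other gene among the 12 largest named rises of that kind reached its level. AT3G10300, an EF-hand protein, had 134.7 and 223.8 in hydrated pollen, against 43.8 and 30.6 in mature pollen (2.25 ± 0.32, adjusted p = 0.000192). AT3G25600, another calmodulin-like protein, had 956.7 and 614.3 in hydrated pollen, against 418.9 and 182.3 in mature pollen (1.47 ± 0.20, adjusted p = 0.000137).

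The calcium sensor that fell was AT1G73630. This calmodulin-like gene had 1348.5 and 1022.2 in hydrated pollen, against 3733.3 and 4505.3 in mature pollen (-1.80 ± 0.26, limma adjusted p = 0.000224), with no overlap of the groups. The brightest sensor, AT4G03290, read 10693.3 and 12060.9 in hydrated and 11153.2 and 9453.5 in mature pollen, and its groups overlapped (0.15 ± 0.19, adjusted p = 0.818). Without the block AT1G76640 and AT3G10300 passed and the other two did not. With each array left out in turn, all 4 passed.

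Among genes of the early touch and wound response 3 of 7 tested rose, where 2.57% of all tested probe sets did, and none fell. The median log2 change was 0.93, which was 0.27 with signals floored at the 60th percentile. Besides AT1G76640 the risen genes were PUB23 and PUB22, U-box ubiquitin ligases that damp immune signalling. Neither ligase had a mature array above background. Both were tested only through their hydrated and tube arrays, which favours rises over falls in the count. PUB23 had 119.1 and 166 in hydrated pollen, against 26.1 and 3.8 in mature pollen, at least 4.81-fold higher (limma adjusted p = 0.000195). PUB22 had 65.5 and 58.6 in hydrated pollen, against 2.6 and 8.5 in mature pollen, at least 2.12-fold higher (adjusted p = 0.00217), and was lost without hydrated array 1, on the 4 arrays alone and with signals floored at the 60th percentile. Neither ligase passed without the block (adjusted p = 0.0571 and 0.0549). PUB23 was brighter on the tube arrays, at 2503.7 and 3879.6. The list's transcription factor WRKY6 read 53.2 and 2.3 in hydrated and 9.3 and 24.4 in mature pollen and did not pass.

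The largest rise from background was that of AT1G74450. It had 1213.2 and 2978.1 in hydrated pollen, against 5.8 and 13.5 in mature pollen, at least 65.0-fold higher (limma adjusted p = 2.21e-13). Array 2 gave the higher signal in both stages. AT5G04760, a MYB-related transcription factor, had 608.5 and 474.1 in hydrated pollen, against 31.6 and 7.2 in mature pollen, at least 18.4-fold higher. CXE18, a carboxylesterase, had 136.5 and 214.3 in hydrated pollen, against 7.3 and 9.2 in mature pollen, at least 5.85-fold higher. AT3G04640 had 147.2 and 109.8 in hydrated pollen, against 6.1 and 22.6 in mature pollen, at least 4.35-fold higher. These 4 genes passed with each array left out, and also without the block.

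Other rises started from a measurable level in dry pollen. AT3G19690, a secreted protein of the family of pathogenesis-related protein PR-1, had 880.2 and 709.3 in hydrated pollen, against 88.7 and 58.9 in mature pollen (3.45 ± 0.19, limma adjusted p = 1.07e-09). On the tube arrays it read 9656.2 and 7143.5. AT5G10695 had 1952.2 and 967.6 in hydrated pollen, against 168.7 and 112.6 in mature pollen (3.32 ± 0.19). AT5G37230, a RING-type zinc finger protein, had 1210 and 903.6 in hydrated pollen, against 111.6 and 113.1 in mature pollen (3.22 ± 0.22), on a probe set marked as matching several transcripts in part. All 3 passed without the block.

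The 5 remaining large rises had 1 mature array on each side of the background limit. AT1G14200, a RING-type zinc finger protein, had 467.5 and 421.7 in hydrated pollen, against 6 and 113.5 in mature pollen. AT5G25450, a subunit of the mitochondrial cytochrome bc1 complex, had 459.4 and 368.5 in hydrated pollen, against 17.1 and 80.1 in mature pollen. AT4G34630 had 187.4 and 167.2 in hydrated pollen, against 52.7 and 4.5 in mature pollen. The hydrated arrays were close to each other in all of these, and the groups did not overlap, as in 273 of the 293 called rises. AT2G23120 had 430.2 and 227.2 in hydrated pollen, against 96.6 and 12.2 in mature pollen. AT5G35320 had 181.4 and 151.8 in hydrated pollen, against 5.8 and 33.9 in mature pollen. Their fitted log2 changes lay between 3.19 and 4.09, each resting in part on a value under background, and their limma adjusted p between 1.73e-05 and 0.00145. None of the 5 passed without the block, and AT5G35320 was also lost without hydrated array 1 (adjusted p = 0.0934).

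**Figure D2:**
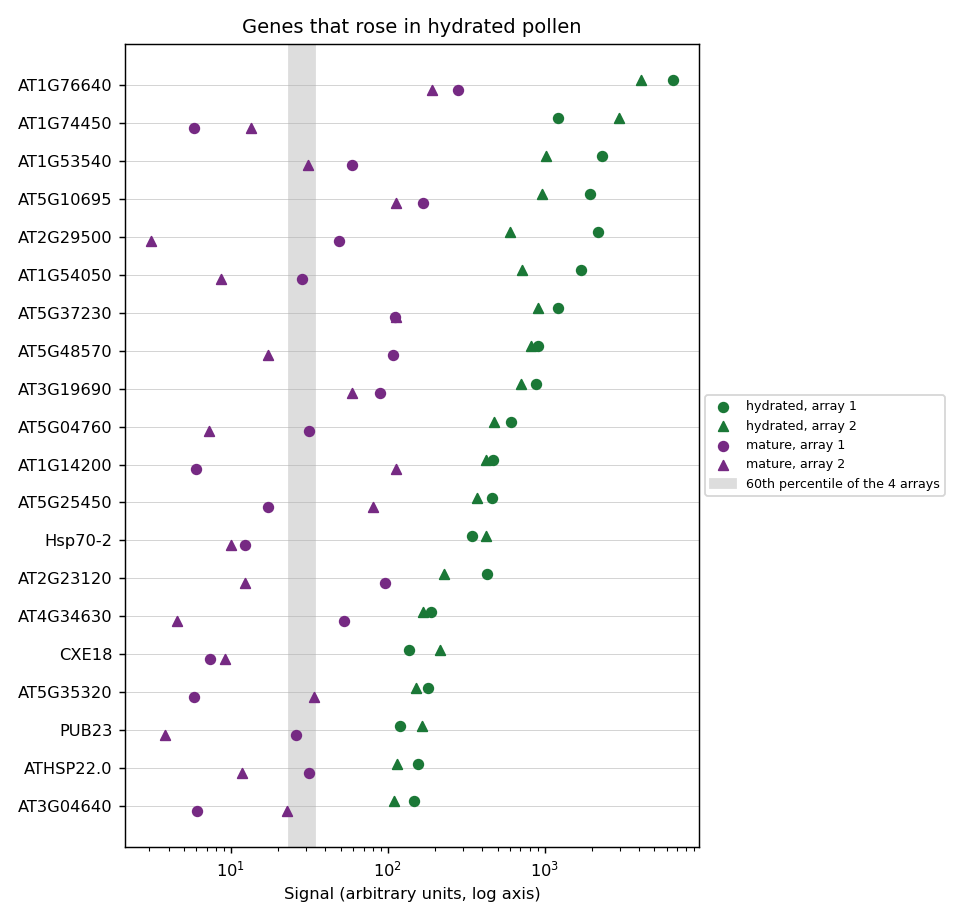
Signal on each array, on a log axis in arbitrary units, of the 20 genes with the largest rises, green for hydrated and purple for mature pollen, with circles for array 1 and triangles for array 2, and with the range of the 60th percentile of the 4 arrays shaded. In every gene shown the hydrated arrays lie to the right of the mature arrays, and AT1G76640 has the highest hydrated signals, 6555.1 and 4098.

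Transcription factors of pollen fell in 4 of 13 tested genes, and none rose. Of all tested probe sets 1.12% fell, and of the 2283 in the brightest of the 5 signal classes 115 did. The list's median log2 change was -0.70, and between -0.59 and -0.69 with the 2 other scalings of the arrays. AT1G35490, a bZIP family factor, had 387.8 and 1243.2 in hydrated pollen, against 6612 and 3406.6 in mature pollen (-2.77 ± 0.36, limma adjusted p = 8.33e-05). The groups did not overlap, and the fall was larger within number 1 (-4.09) than within number 2 (-1.45). On the tube arrays it read 1806.3 and 2079.5. AGL18, a MADS-domain factor, had 4147.8 and 3706.9 in hydrated pollen, against 6759.8 and 6526.6 in mature pollen (-0.76 ± 0.18, adjusted p = 0.0183). AGL66, a MADS-domain factor needed for pollen maturation, had 1162.8 and 588.5 in hydrated pollen, against 1729.4 and 1296.5 in mature pollen (-0.86 ± 0.21, adjusted p = 0.0282).

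The fall of BZIP61 rested on the pairing of arrays. It had 7.7 and 39.2 in hydrated pollen, against 33.8 and 157.6 in mature pollen (-2.07 ± 0.51, limma adjusted p = 0.0276), and the groups overlapped. AGL104, the partner of AGL66, read 685.8 and 661 in hydrated and 930.8 and 1210.9 in mature pollen and did not pass (-0.66 ± 0.19, adjusted p = 0.0741). Of these 4 falls AT1G35490 alone passed without the block (adjusted p = 0.0453). AGL18 was lost without either hydrated array, AGL66 without hydrated array 2, and BZIP61 without hydrated array 1, hydrated array 2 or mature array 2. AGL18 and AGL66 also failed with arrays scaled to a common 75th percentile, AGL66 with a filter at the 75th percentile, and BZIP61 on the 4 arrays alone, with quantile normalization and with signals floored at the 60th percentile.

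In the cell wall list 4 of 21 tested genes fell and none rose, and the median log2 change was -0.08. Of all tested probe sets 1.12% fell, and of the 2283 in the brightest of the 5 signal classes 115 did. EXPA24, an expansin, had 305.2 and 194 in hydrated pollen, against 824.9 and 1029 in mature pollen (-1.92 ± 0.30, limma adjusted p = 0.000498). On the tube arrays it read 48.6 and 28.5. The pectin methylesterase AT5G07420 had 10361.4 and 9960 in hydrated pollen, against 24930 and 16412.7 in mature pollen (-0.99 ± 0.19, adjusted p = 0.00415). Pectin methylesterases set how stiff the pectin of the tube wall is. A further one, AT5G27870, had 4201.5 and 4863.5 in hydrated pollen, against 5020 and 12565.6 in mature pollen (-0.81 ± 0.22, adjusted p = 0.0456). AT4G33970, a leucine-rich repeat extensin, had 3905.9 and 1596.8 in hydrated pollen, against 11100.1 and 2280.3 in mature pollen (-1.01 ± 0.24, adjusted p = 0.0221), and its groups overlapped.

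None of these 4 falls passed without the block. EXPA24 passed with each array left out, AT5G07420 and AT4G33970 were lost without hydrated array 1, and AT5G27870 without hydrated array 2 or mature array 2, and AT4G33970 and AT5G27870 were also lost with quantile normalization. AT5G27870 also failed at a common 75th percentile and with every other filter tried. The brightest wall genes did not pass. The polygalacturonase AT3G07820 read 34686 and 31937 in hydrated and 42491.4 and 28230 in mature pollen (-0.06 ± 0.21), and the pectate lyase AT3G01270 read 31529.5 and 28333.7 in hydrated and 35375.8 and 24414.2 in mature pollen (0.02 ± 0.20).

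In tip growth signalling 2 of 9 tested genes fell and none rose, and the median log2 change was -0.17. Of all tested probe sets 1.12% fell, and of the 2283 in the brightest of the 5 signal classes 115 did. AT1G12070, a RhoGDI, which extracts the ROP switch proteins of the tube tip from the membrane, had 787.6 and 1378.1 in hydrated pollen, against 1297.5 and 2339.1 in mature pollen (-0.74 ± 0.20, limma adjusted p = 0.0463). The pollen receptor-like kinase gene AT1G72460 had 476.8 and 660.2 in hydrated pollen, against 745.4 and 1567.8 in mature pollen (-0.95 ± 0.26, adjusted p = 0.04995). Both calls were lost without the block, without hydrated array 1, hydrated array 2 or mature array 2, with either other scaling and with every other filter tried. SCN1, the RhoGDI of root hairs, read 10161 and 10271.8 in hydrated and 8544.8 and 9441.4 in mature pollen (0.19 ± 0.19).

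Of all tested probe sets 1.12% fell, and of the 2283 in the brightest of the 5 signal classes 115 did. In the actin list 1 of 10 tested genes fell, with a median of -0.23. This was ACT12, a pollen actin, with 1673.7 and 4472.3 in hydrated pollen, against 3276.5 and 6500.7 in mature pollen (-0.75 ± 0.18, limma adjusted p = 0.0259). Its groups overlapped, and the call was lost without the block, without either hydrated array and at a common 75th percentile. The actin-bundling protein genes PLIM2a and PLIM2b read 28430 and 25214.9 and 8171.6 and 11251.4 in hydrated pollen, against 31719.1 and 26376.5 and 6683.3 and 10866.7 in mature pollen, and neither passed.

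Of the falls outside these lists, 4 of the largest were in transcripts with a mature signal over 1000 on each array. AT2G19000 had 4201 and 1424.2 in hydrated pollen, against 19845.4 and 12718.4 in mature pollen (-2.70 ± 0.29, limma adjusted p = 6.89e-06). AT4G18395 had 2925.1 and 1471.1 in hydrated pollen, against 10709.9 and 9270.7 in mature pollen (-2.26 ± 0.20, adjusted p = 6.6e-07). AT1G63060 had 812.7 and 582.3 in hydrated pollen, against 3577.7 and 3634.9 in mature pollen (-2.39 ± 0.20, adjusted p = 3.57e-07). These 3 also passed without the block and with each array left out, and their groups lay far apart. AT3G10460 had 2283.8 and 709.9 in hydrated pollen, against 5790.2 and 3041.6 in mature pollen (-1.72 ± 0.25, adjusted p = 0.0003). On the tube arrays AT1G63060 read 119.2 and 120.4, and AT3G10460 read 189.4 and 161.6.

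Dimmer falls included CEG, an F-box protein, with 324.9 and 366.9 in hydrated pollen, against 1035 and 1072.4 in mature pollen (-1.61 ± 0.22, limma adjusted p = 0.000145). The transcription factor bHLH34 had 120.8 and 136.1 in hydrated pollen, against 445.2 and 433.5 in mature pollen (-1.78 ± 0.28, adjusted p = 0.000605). AT5G39870 had 83.7 and 81.5 in hydrated pollen, against 469.7 and 437.7 in mature pollen (-2.46 ± 0.65, adjusted p = 0.0418). In these 3 genes the arrays of a stage differed by little beside the gap between stages. AT4G10030, an alpha/beta hydrolase, had 31.5 and 58.8 in hydrated pollen, against 117.2 and 169.3 in mature pollen (-1.71 ± 0.45, adjusted p = 0.0431). TMT3, a tonoplast sugar transporter, had 7.1 and 6.6 in hydrated pollen, against 71.1 and 62.6 in mature pollen, at least 2.62-fold lower (adjusted p = 0.0259). None of these 5 passed without the block. AT5G39870 was lost without hydrated array 2 or mature array 1, with quantile normalization, with arrays at a common 75th percentile and with either stricter filter, and AT4G10030 and TMT3 without any 1 of the 4 arrays. AT4G10030 was also lost with either other scaling and with no filter, and TMT3 with a filter at the 75th percentile.

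**Figure D3:**
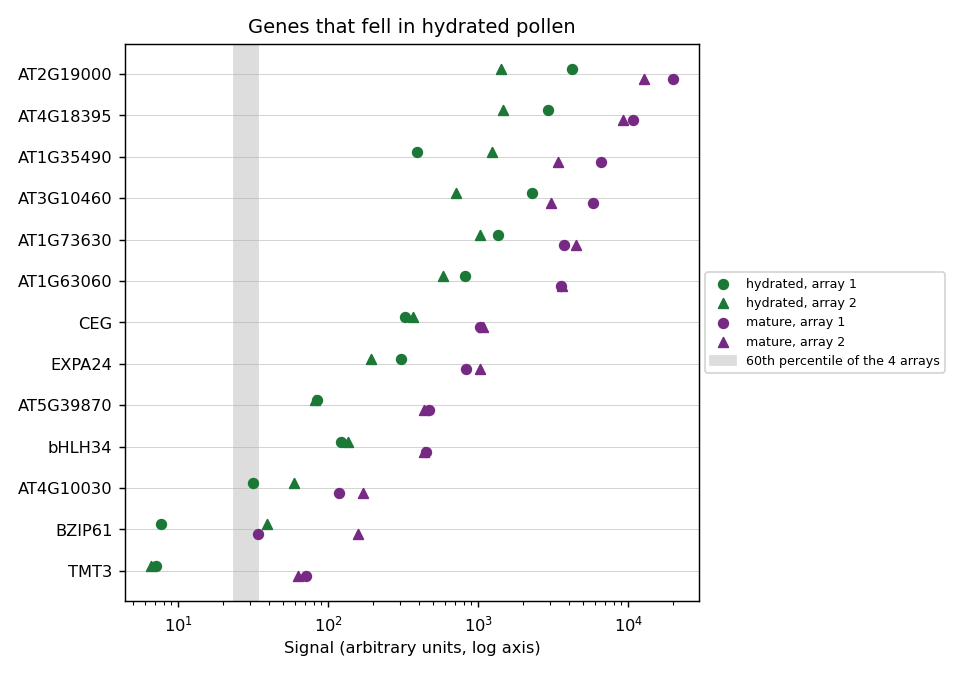
Signal on each array, on a log axis in arbitrary units, of the 13 genes with the largest falls, green for hydrated and purple for mature pollen, with circles for array 1 and triangles for array 2, and with the range of the 60th percentile of the 4 arrays shaded. The hydrated arrays lie to the left of the mature arrays in every gene but BZIP61, whose groups overlap, and AT2G19000 has the highest mature signals, 19845.4 and 12718.4.

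The most abundant messages of the dry grain largely kept their relative signal. Signals are relative to their own array, so whether the amount of RNA per grain was kept or lost was not measured. Of the 100 tested probe sets brightest in mature pollen, 97 stayed within 2-fold in hydrated pollen, none passed upward and 5 passed downward. They held 33.8% and 30.9% of all signal in hydrated pollen, against 35.0% and 31.7% in mature pollen, and 91 of them were also among the 100 brightest of hydrated pollen. The steadiest of the 20 brightest single-gene probe sets included AT1G10770, with 40414.8 and 30297.7 in hydrated and 40239.8 and 29910 in mature pollen. AT1G29140 had 30218.1 and 26494 in hydrated and 28426 and 28079 in mature pollen. AT4G02250 had 27483.2 and 23543 in hydrated and 28717.6 and 22664.4 in mature pollen. In these genes array 1 was brighter than array 2 in both stages.

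The 5 falls among the 100 were AT5G07420 and AT2G19000, already described, AT3G28980 and 2 probe sets without a gene name here, 254716_at and 264993_at. AT3G28980 had 7162.5 and 5744.8 in hydrated pollen, against 19272.4 and 15342.7 in mature pollen (-1.42 ± 0.18, limma adjusted p = 5.16e-05). Probe set 264993_at had 7789.1 and 8775.6 in hydrated pollen, against 17662 and 17241.7 in mature pollen (-1.08 ± 0.18). Probe set 254716_at had 21803.6 and 11753.4 in hydrated pollen, against 34386.5 and 20940.2 in mature pollen, and its groups overlapped (-0.75 ± 0.19). AT2G19000 alone among them passed without the block. All 5 were lower still on the tube arrays than the mean of the hydrated arrays. Within number 2, however, AT2G19000 read 1692.6 on the tube array and 1424.2 on the hydrated array.

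**Figure D4:**
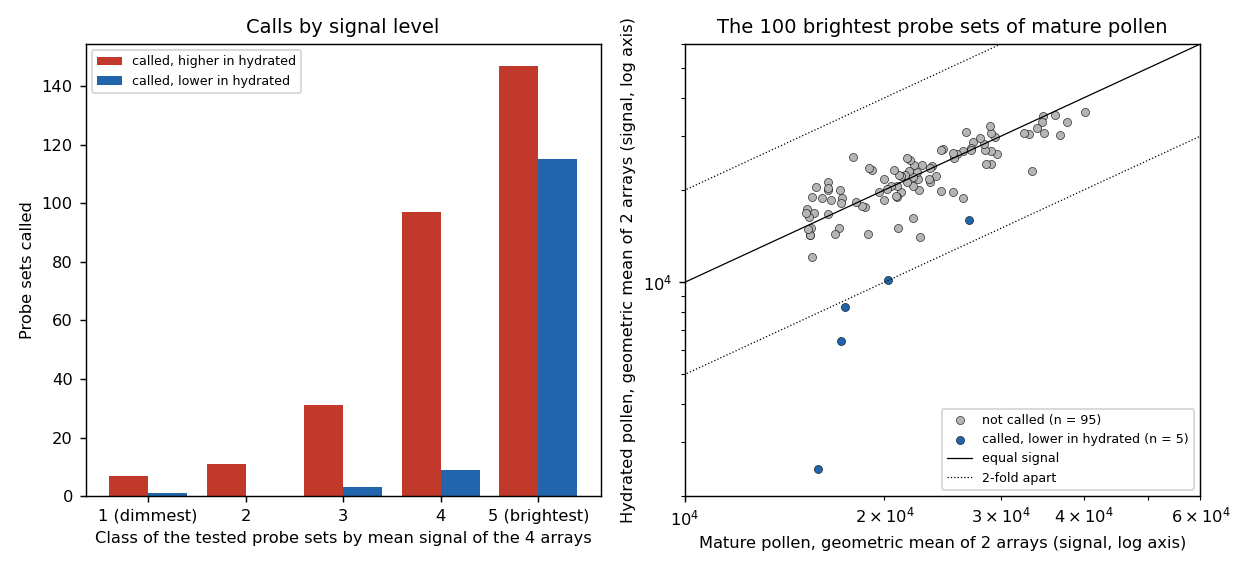
The left panel counts the called probe sets in 5 equal classes of the tested probe sets by mean signal of the 4 arrays, red for higher and blue for lower in hydrated pollen, and the brightest class holds 147 rises and 115 falls. The right panel plots the geometric mean signal in hydrated against mature pollen, on log axes in arbitrary units, for the 100 probe sets brightest in mature pollen, of which 97 lie between the dotted lines that mark 2-fold.

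Several other groups had no call, where 3.69% of all tested probe sets passed. Cytosolic ribosomal proteins, the building blocks of the ribosome, had 13 tested members and none passed. Their median log2 change was -0.65, and -0.16 with signals floored at the 60th percentile, since most read near background. Autophagy genes had 9 tested members and none passed, with a median of -0.22. The brightest, APG8H (AT3G15580), which tags autophagosome membranes, read 1305 and 689.2 in hydrated and 1954.4 and 942.2 in mature pollen (adjusted p = 0.189 in limma). Vesicle traffic had 7 tested members and none passed. The exocyst subunit SEC6 read 163.3 and 224.4 in hydrated and 143.4 and 155.6 in mature pollen (0.36 ± 0.28). Of 4 tested ion and water transport genes and 4 of detoxification none passed, and CHX15, a cation exchanger, read 711.5 and 824.8 in hydrated and 862.8 and 1419.6 in mature pollen (-0.53 ± 0.19, adjusted p = 0.177).

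Of 7 tested sugar transport genes 1, TMT3, fell, where 1.12% of all tested probe sets did. AT3G19940, a sugar carrier gene, was not above background in either stage, with 6.8 and 1.3 in hydrated and 5.1 and 1.7 in mature pollen, and read 1143.9 and 1907.6 on the tube arrays. The exchanger gene CHX21 likewise had 11.7 and 2.2 in hydrated and 11.1 and 1.1 in mature pollen, and read 285.2 and 285.1 on the tube arrays. Neither gene had risen above background by 45 min. Of the 39 genes of the dehydration list 7 had a named probe set and 2 were tested, so most of the list was not tested. The 2 tested genes, LEA4-5 and COR47, read at most 51.7 in hydrated and mature pollen and did not pass. Dehydration genes outside the list were not counted here, so these values do not describe such genes as a whole. RPN12a, a proteasome subunit, read 37.7 and 29.8 in hydrated and 19.8 and 9.1 in mature pollen and did not pass.

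Plastid-encoded genes, whose transcripts are made inside the organelle, had 43 tested members of 69 on the array, all of them dim. The summed signal of the 69 was 2168 and 1398.1 in hydrated pollen, against 1500.3 and 966.3 in mature pollen. Of the 43, 29 had a positive change, with a median of 0.85, and 1 passed, where 2.57% of all tested probe sets passed upward. This was clpP, a subunit of the plastid protease, with 77.6 and 49.7 in hydrated pollen, against 13.8 and 13.6 in mature pollen, at least 2.12-fold higher (limma adjusted p = 0.0481). That call was lost without the block and without hydrated array 1, hydrated array 2, mature array 1 or either tube array. It was also lost on the 4 arrays alone, with quantile normalization, with signals floored at the 60th percentile and with no filter. The list's median was 0.03 with signals floored at the 60th percentile, and its highest signal on the 4 arrays was 101.

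**Figure D5:**
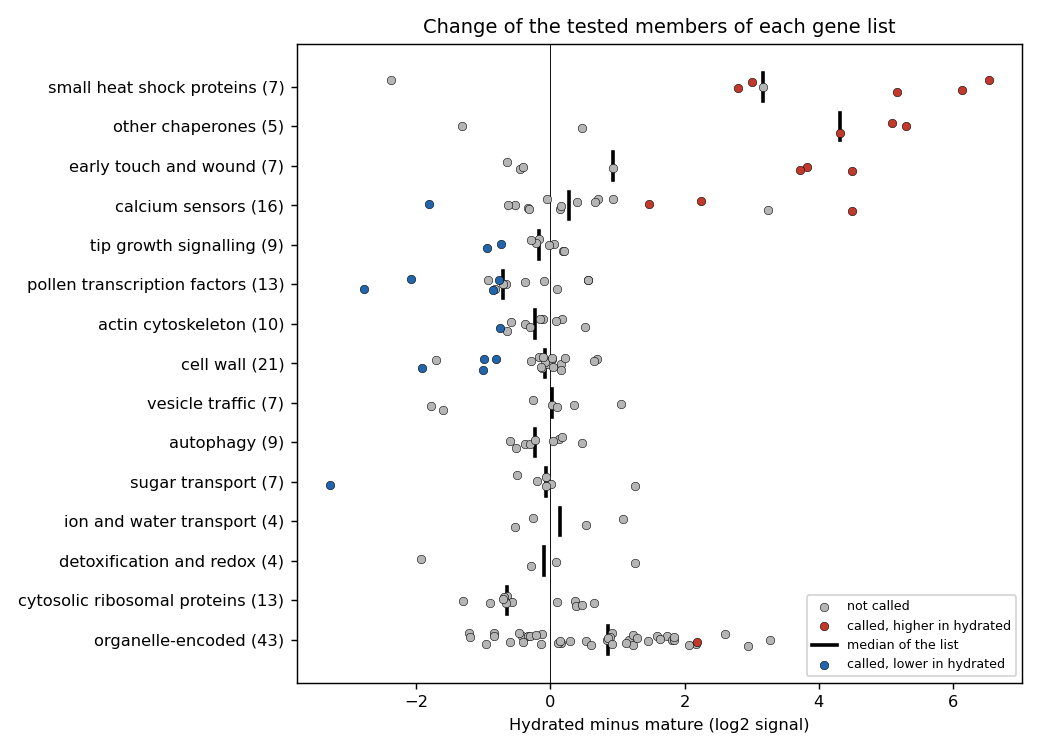
Each point is a tested member of a gene list, placed by its hydrated minus mature change in log2 signal, with red for called higher, blue for called lower and grey for not called, and a black bar at the median of the list; the number of tested members stands in parentheses. The red points of the chaperone lists lie between 2.79 and 6.54, and the blue points of the pollen transcription factors between -2.77 and -0.76.

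Genes whose change went opposite ways in the 2 numbers were common. Of the 1376 single-gene probe sets with a mean signal over 200, 445 had opposite signs, and in none did both differences exceed 2-fold. AT5G54780 had the highest signals among the 4 with the largest gaps, 828.9 and 7649.7 in hydrated and 1741.6 and 4281.9 in mature pollen, a change of -1.07 within number 1 and 0.84 within number 2. AT1G64320 changed by -0.68 and 1.39, AT4G30060 by 1.83 and -0.24, and AT3G50370 by 1.93 and -0.04. None of the 4 passed the test.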

How the data were processed

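The authors deposited a linear signal intensity for each probe set on each array, made with GCOS 1.0 and MAS5 per the submitters' processing notes. Trimmed of its lowest and highest 2%, each array averaged close to 100, as separate scaling of each array gives. No detection calls were used here. The number of arrays, 2 per stage, limits the precision, and where replicates share an origin p-values measure only the spread between these samples.

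Signals under 0.1 were set to 0.1 (1 value) and log2 was taken. Tested were probe sets that exceeded the 60th percentile of the array in 2 or more of the 6 arrays, 11412 of 22746 after 64 controls were left out. limma 3.58.1 in R 4.3.3 fitted stage and replicate number over the 6 arrays with an intensity trend, leaving 2 residual degrees of freedom and 15.5 prior ones. Tests were two-sided with Benjamini-Hochberg adjustment over all tested probe sets. A change is given as log2 ± SE. Where neither array of a stage was above the percentile, the fold is a lower limit, the bright mean divided by the higher of the percentile value and the dim stage's own signal, array by array, written as "at least".

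The replicate numbers came from the sample titles, and the labels do not say whether same-numbered arrays share plants or a day. Their use as a block rested on the data. Deviations of same-numbered arrays from their stage means correlated at 0.174 (hydrated and mature), 0.185 (hydrated and tube) and 0.221 (mature and tube) over the tested probe sets, and at 0.665, 0.748 and 0.640 over those with a mean signal over 200.

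Genes were named by the platform annotation with symbols from a TAIR10.1 gene table. It gave 1 gene for 13513 probe sets, several for 503 and none for 8730. Of the tested probe sets 6511 had 1 gene. Of the 421 calls, 159 rises and 81 falls had 1 gene. A gene missing from a list may be on the array unnamed. Coordinates are left out, since no build is stated for the array, and sequences were not used here.

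The comparison, the 23 gene lists and the naming rule were chosen with earlier results of these data known. Named were, among single-gene probe sets with equal sign in both numbers, the 12 largest called rises and 12 largest called falls from a measured level, the 8 highest bounds upward and up to 4 downward, called list members (up to 4) with the 2 brightest that were not called, the 4 steadiest of the 20 brightest single-gene probe sets, and 4 with opposite signs. None of the 20 brightest was called. Lists were described by counts and medians without a test, with 1 probe set per gene. The alternatives were no block, the 4 arrays alone, quantile normalization, a common 75th percentile, a floor at the 60th percentile, an offset of 16, other filters, no trend, and each array left out. WRKY6 and the members singled out under "Other observations" were chosen after their values were seen.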

Additional observations from a re-analysis of the deposited data

How the results depend on the processing

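With the replicate block 421 probe sets were called, 293 upward and 128 downward. With no replicate block the counts were 66, 60 and 6, and without the intensity trend all were 0, with 997 at an unadjusted p under 0.05. Both are limma fits, and the cause was not tested. Leaving out 1 array at a time gave 187 to 773 calls, 131 to 532 upward and 44 to 241 downward. Falls numbered 212 on the 4 arrays alone with the block, 202 with signals floored at the 60th percentile and 65 at a common 75th percentile. That scaling moved the median of all tested probe sets from -0.02 to 0.08 and the share of rises from 69.6% to 82.6%. Quantile normalization (320), no filter (355), a filter on 2 of the 4 arrays (361), a filter at the 75th percentile (360) and an offset of 16 (467) kept the count of calls within 1.5 times.

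The relation between the numbers depended on signal, with a coefficient of 0.767 over 200 and of 0.0324, 0.0779, 0.521 and 0.774 in classes 1, 2, 4 and 5 of signal, beside 0.153 in all. None of the 77 called named genes changed sign in any setting run. All 421 calls had equal sign in both numbers, so this follows largely from the choice of genes and adds no support. Without the block 50 of the named genes lost their call, and without the trend 77 did. Of these 77 genes, 44 passed with each array left out. Of 240 list medians over 15 lists, 206 moved by less than the spread between the numbers and 34 by more. With 2 arrays per stage and no detection calls, changes near background are measured poorly.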

Other observations

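Genes in this section were chosen after their values were seen, so their tests describe them and add no support. Chaperone partners outside the lists were among the rises. AT2G20560, a DnaJ protein that hands clients to HSP70, had 91.9 and 105.2 in hydrated pollen, against 8 and 6.6 in mature pollen, at least 3.36-fold higher. AT3G12050, a protein of the Aha1 type that stimulates HSP90, had 270.4 and 288.6 in hydrated pollen, against 58 and 47.5 in mature pollen (log2 change 2.41 ± 0.35). Fes1A, which protects cytosolic HSP70, had 353.3 and 283.5 in hydrated pollen, against 154.8 and 72.9 in mature pollen (1.57 ± 0.24). TIL, a temperature-induced lipocalin, had 568.7 and 375.6 in hydrated pollen, against 111.4 and 89.3 in mature pollen (2.21 ± 0.23). The groups did not overlap in these 4 genes, where 15.7% of all tested probe sets had both hydrated arrays above both mature arrays. For the 4 genes limma adjusted p lay between 4.63e-06 and 0.000498, and AT2G20560 and TIL passed without the block. BZIP28, a membrane-bound factor of the unfolded protein response, had 390.9 and 786.4 in hydrated pollen, against 172.2 and 433.6 in mature pollen (1.02 ± 0.22). Its groups overlapped, and the call was lost without either hydrated array.

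Genes of stored oil moved both ways. SDP1, the lipase that breaks down seed oil, had 903 and 928.2 in hydrated pollen, against 393.5 and 338.2 in mature pollen (1.33 ± 0.20, limma adjusted p = 0.000388). Its relative SDP1-LIKE had 915.6 and 1574.5 in hydrated pollen, against 1905.7 and 3349.5 in mature pollen (-1.07 ± 0.18, adjusted p = 0.00127), and was lost without hydrated array 2. AT1G67360, a lipid droplet protein, had 893.1 and 783.3 in hydrated pollen, against 154.8 and 108.4 in mature pollen (2.69 ± 0.20). Both lipases failed without the block, and AT1G67360 passed.

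Among single wall genes outside the list, the pectin methylesterase AT3G06830 had 4620.5 and 3064.1 in hydrated pollen, against 10129.6 and 7719.8 in mature pollen (-1.23 ± 0.27), and the pectin methylesterase AT4G15980 had 959.2 and 1013.1 in hydrated pollen, against 1924.1 and 3032 in mature pollen (-1.29 ± 0.20). Both failed without the block and without hydrated array 2. EXPA16, an expansin, had 94.2 and 165.3 in hydrated pollen, against 19.8 and 100.8 in mature pollen (1.48 ± 0.35, limma adjusted p = 0.021), with overlapping groups, and was lost without the block, hydrated array 1 or mature array 1 and with quantile normalization. Another RhoGDI, AT1G62450, had 1693.6 and 1062.5 in hydrated pollen, against 3133.4 and 1897.8 in mature pollen (-0.86 ± 0.19), lost without the block or either hydrated array. AT5G15950, an S-adenosylmethionine decarboxylase of polyamine synthesis, had 1769 and 2313.4 in hydrated pollen, against 4400.5 and 5650.3 in mature pollen (-1.30 ± 0.18, limma adjusted p = 0.00021). EIN3, a transcription factor of the ethylene response, had 1813.4 and 3142 in hydrated pollen, against 823.6 and 1519.9 in mature pollen (1.09 ± 0.18, adjusted p = 0.000886), with changes of 1.14 and 1.05 within the numbers. AT5G15950 and EIN3 failed without the block, and EIN3 also without hydrated array 1.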
